A study of Homo sapiens with 2 samples.

Results

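The 10 genes described here encode the cytosolic route by which cells make fatty acids from acetyl-CoA and then lengthen and desaturate them, together with a lipid droplet protein that is co-regulated with that route in human liver. They are ACLY, ACSS2, ACACA, FASN, ELOVL6, ELOVL5, SCD, FADS2, FADS1 and PNPLA3, taken by gene symbol from a table of 46865 loci, and all 10 were found. The study sequenced RNA of primitive macrophages grown from 1231A3, an induced pluripotent stem cell line of human origin, as a stand-in for microglia. There were 2 libraries. The PNU282987 library came from wild-type cells differentiated for 30 days and then given PNU282987, which fully activates α7 nicotinic acetylcholine receptors, at 100 µM for 12 hours. The Control library came from wild-type cells of the same line and the same 30 days of differentiation, and its labels name no vehicle. The labels of the PNU282987 library disagree: amyloid β stands in its treatment field, and PNU282987 stands in its title and protocol, shortened to PNU in its library name, so the title decided its group. The protocol text with the compound is attached to both libraries, and the Control library was likewise grouped by its labels. Both groups rest on 1 cell line and 1 library, so replicates are lacking throughout and no p-value is given.

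Fatty acid synthesis starts in the cytosol, where ACLY splits citrate into acetyl-CoA and ACSS2 makes acetyl-CoA from acetate. ACACA carboxylates acetyl-CoA to malonyl-CoA, FASN builds palmitate from both, the ELOVL enzymes lengthen acyl chains, and SCD, FADS1 and FADS2 insert double bonds. Many of these genes are textbook targets of the sterol-regulated factors SREBP-1 and SREBP-2 and of liver X receptors, and in macrophages their products feed membrane phospholipids and lipid mediators.

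The sequence just upstream of the start site is where much of the regulation of these genes has been mapped, so the upstream stretches of 4 of them are shown: ELOVL6, which had one of the highest ratios of the 10, SCD, which had the most reads, and the acetyl-CoA and malonyl-CoA enzymes ACLY and ACACA, whose ratios differed. Sequences are from RefSeq, GRCh38.p14, read 5′ to 3′ on the gene's own strand. Each is limited to the longest run of the 250 upstream bases that lies in no annotated exon. Capitals mark the CCAAT box, which reads ATTGG where it lies on the other strand. They also mark the GC box GGGCGG, whose reverse complement is CCGCCC. Motifs outside the printed run are not shown: the SCD window has 2 GC boxes, both nearer the start site than the stretch printed. The ELOVL6 stretch lies at chr4:110198677-110198841 on the minus strand and the SCD stretch at chr10:100346983-100347123 on the plus strand. The ACLY stretch lies at chr17:41919023-41919272 and the ACACA stretch at chr17:37359122-37359346, both on the minus strand. ACLY and ACACA each have more than 1 start site with a window, and 1 is shown. The ACACA window shown has more motif matches than the other ACACA windows, 1 CCAAT box and 6 GC boxes. The ELOVL6, ACLY and ACACA stretches lie inside the gene spans given below.
ELOVL6: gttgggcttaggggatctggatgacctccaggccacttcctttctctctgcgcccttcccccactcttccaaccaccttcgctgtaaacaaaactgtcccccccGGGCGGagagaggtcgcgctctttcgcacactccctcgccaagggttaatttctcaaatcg
SCD: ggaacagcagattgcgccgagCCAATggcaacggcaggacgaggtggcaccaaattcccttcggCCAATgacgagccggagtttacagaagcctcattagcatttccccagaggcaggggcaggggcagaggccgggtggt
ACLY: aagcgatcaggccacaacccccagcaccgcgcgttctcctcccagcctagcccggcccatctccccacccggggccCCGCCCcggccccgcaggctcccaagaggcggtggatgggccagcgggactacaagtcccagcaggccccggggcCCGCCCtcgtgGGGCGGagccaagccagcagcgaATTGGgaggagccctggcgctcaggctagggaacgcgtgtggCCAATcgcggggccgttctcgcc
ACACA: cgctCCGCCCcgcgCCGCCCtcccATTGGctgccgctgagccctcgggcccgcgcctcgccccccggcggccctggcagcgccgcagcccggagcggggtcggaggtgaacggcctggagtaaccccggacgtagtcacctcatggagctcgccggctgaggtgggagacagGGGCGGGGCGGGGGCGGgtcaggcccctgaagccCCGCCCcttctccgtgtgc

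RefSeq windows were matched for 8 of the 10 genes, as 13 windows. FASN and PNPLA3 had none and were not searched. In the 250 upstream bases of each window, 4 motifs were searched on both strands. The CCAAT box was found in 7 of the 13 windows, from 5 genes, and in 32.01% of all 35116 windows of the same length. The GC box GGGCGG was found in 10 of the 13, from 7 genes, and in 42.6% of all windows. Windows of the same gene can overlap, and both CCAAT boxes of ACLY are counted in each of its windows. The counts of genes are free of this double counting. The shares are per window and none was computed per gene, so the counts of genes cannot be set against them. The E-box CACGTG was found in 1 window, that of ELOVL5, and in 6.34% of all windows. The sterol regulatory element letters TCACNCCAC were found in none of the 13 and in 0.883% of all windows. At so low a share, none in 13 windows says little about these genes. These are matches of letters in a short window and were not tested for binding.

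Library totals were 36134391 reads for PNU282987 and 39316475 for Control. Of the 46865 loci, 14269 had a mean of at least 1 CPM, the read count divided by the scaled library total in units of 1000000 reads, and were compared, and all 10 genes were among them. All 12 macrophage markers looked at were above 1 CPM in both libraries, at 126 to 1176 CPM in PNU282987 and 96.3 to 1692 CPM in Control, with a summed level of 7093 CPM in PNU282987 and 7655 CPM in Control. Single macrophage markers differed far more than the sum. CD14 had 539 CPM in PNU282987 and 96.3 CPM in Control, and ITGAM had 473 CPM in PNU282987 and 138 CPM in Control. C1QB had 256 CPM in PNU282987 and 480 CPM in Control. Of the other macrophage markers, CD68, CSF1R, PTPRC, SPI1, AIF1, C1QA and C1QC were also lower in PNU282987. MRC1 was higher, and CD163 was close to level at a log2 ratio of 0.04. The pluripotency marker POU5F1 and the adipocyte markers ADIPOQ and LEP had 0 reads in both libraries. The 5 pluripotency markers summed to 4.36 CPM in PNU282987 and 4.90 CPM in Control. The 3 endothelial markers summed to 101 CPM in PNU282987 and 147 CPM in Control. Most of that sum was PECAM1, with 84.0 CPM in PNU282987 and 135 CPM in Control. KDR was higher in PNU282987, with 16.2 CPM in PNU282987 and 11.5 CPM in Control. CDH5 had 12 reads in PNU282987 and 22 in Control. The 5 adipocyte markers summed to 1.87 CPM in PNU282987 and 0.719 CPM in Control, and 1 of them was at or above 1 CPM in PNU282987 and 0 in Control. Of 6 hepatocyte markers, 5 were at or above 1 CPM in each library. The 6 summed to 120 CPM in PNU282987 and 136 CPM in Control. SERPINA1 alone of the 6 was lower in PNU282987, with 69.7 CPM in PNU282987 and 93.6 CPM in Control. ALB, APOA1, APOB, AFP and TTR were higher in PNU282987. ALB had 19 reads in PNU282987 and 0 in Control, and APOB had 10.3 CPM in PNU282987 and 5.83 CPM in Control. All 4 mesenchymal markers were above 1 CPM in both libraries, at 21.8 to 1349 CPM in PNU282987 and 22.2 to 1163 CPM in Control, summing to 2882 CPM in PNU282987 and 2556 CPM in Control. The part of these marker differences and of other cells in the levels below was not tested, and in RNA from a whole culture fewer cells of a type and less RNA per cell cannot be told apart.

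Reads of the fatty acid genes were more frequent in the PNU282987 library for 9 of the 10 genes. PNPLA3 was 3.68-fold higher and ELOVL6 2.67-fold higher in PNU282987 than in Control. FADS1, FASN and ACACA were 1.95-fold, 1.81-fold and 1.67-fold higher, ELOVL5, SCD, ACLY and FADS2 were 1.46-fold, 1.28-fold, 1.23-fold and 1.12-fold higher, and ACSS2 was level between the libraries. The 10 genes together had 2258 CPM in PNU282987 and 1639 CPM in Control, a 1.38-fold difference (log2 ratio 0.46, 95% counting interval 0.45 to 0.48). Intervals are exact Clopper-Pearson intervals on the reads and cover counting error only.

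A locus was called different where the libraries differed at least 2-fold, the 95% counting interval of the ratio excluded 1 and the mean was at least 1 CPM. By this rule 2 of the 10 genes, PNPLA3 and ELOVL6, were higher in PNU282987, beside 2.96% of the 14269 loci compared, and 0 were lower, beside 2.81% of loci. At a fold of 4 no gene was higher or lower, beside 0.743% and 0.42% of loci. With a fold of 1.5 the count of higher genes was 5 of 10, adding FADS1, FASN and ACACA, beside 8.77% of loci, and the count of lower genes was 0, beside 8.66%. ACACA was under a fold of 1.5 after correction for GC content and transcript length, at a log2 ratio of 0.52 (0.43 to 0.61). The ratio was above 1 for 9 of 10 genes, beside 49.2% of loci. The counting interval lay wholly above 1 for 9 of 10 genes, beside 33.5% of loci, and no gene's interval lay wholly below 1, beside 33.6% of loci. The median log2 ratio of the 10 genes was 0.64, and that of all loci compared was -0.01. The middle 90% of loci ran between log2 ratios of -0.78 and 0.79, and the 4 genes above that range were PNPLA3, ELOVL6, FADS1 and FASN.

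**Figure D1:**
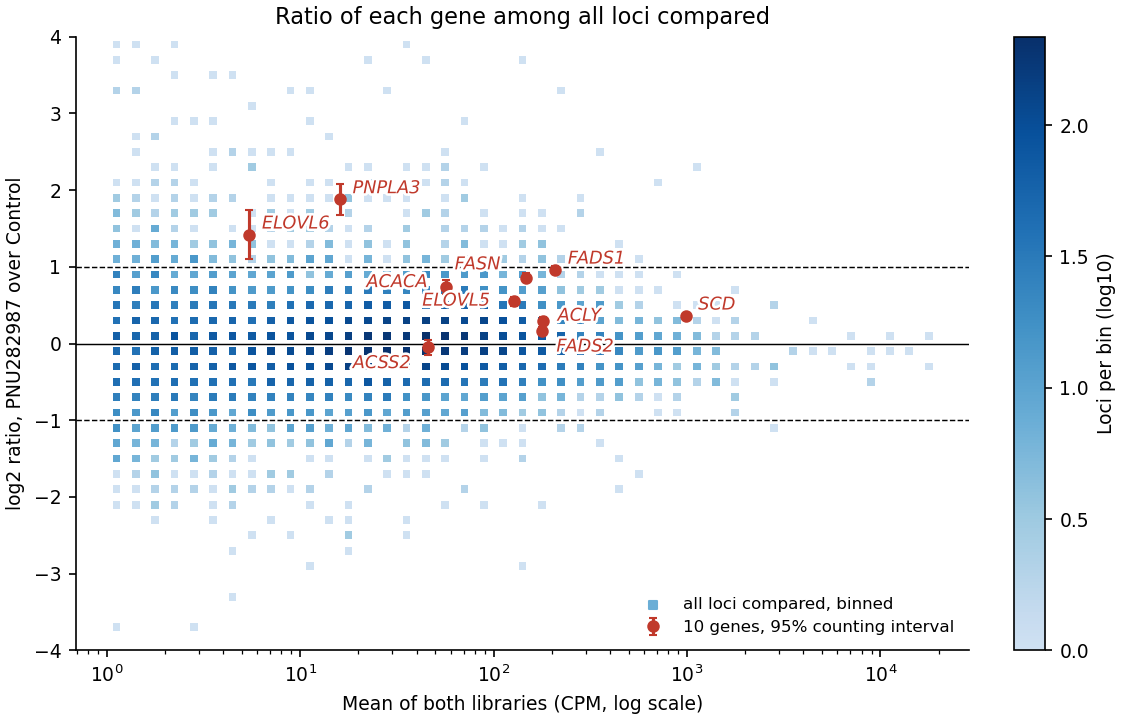
Log2 ratio of PNU282987 over Control (vertical axis) against the mean level in CPM on a log axis, for the 10 genes (points with 95% counting intervals) and for the loci compared (squares, shaded by the number of loci per bin). Loci with ratios beyond the ends of the vertical axis are not drawn. PNPLA3 and ELOVL6 lie above the dashed line of a 2-fold difference, and ACSS2 at -0.05 lies at the line of equal levels.

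The acetyl-CoA enzymes differed from each other. ACLY, the ATP citrate lyase (chromosome 17, 41866917 to 41930545, with all coordinates on GRCh38), had 7244 reads or 199 CPM in PNU282987 and 6301 reads or 162 CPM in Control. Its log2 ratio was 0.30 (0.25 to 0.35), higher than that of 77.7% of loci. ACSS2, the cytosolic acetyl-CoA synthetase (chromosome 20, 34874989 to 34927959), had 1638 reads or 44.9 CPM in PNU282987 and 1811 reads or 46.5 CPM in Control. Its log2 ratio of -0.05 had an interval of -0.15 to 0.05, which includes equal levels, and it was the only one of the 10 for which that held. Reads of ACLY per read of ACSS2 were 4.42 in PNU282987 and 3.48 in Control, 1.27 times as many in PNU282987 (1.18 to 1.37).

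ACACA and FASN, the enzymes that commit acetyl-CoA to fatty acids, had close ratios before correction for GC content and transcript length. After that correction they lay apart, at log2 ratios of 0.52 (0.43 to 0.61) for ACACA and 0.96 (0.91 to 1.02) for FASN. ACACA, acetyl-CoA carboxylase alpha (chromosome 17, 37084992 to 37406836), had 2574 reads or 70.6 CPM in PNU282987 and 1652 reads or 42.4 CPM in Control. Its log2 ratio was 0.74 (0.65 to 0.83). FASN, the fatty acid synthase (chromosome 17, 82078338 to 82098236), had 6876 reads or 189 CPM in PNU282987 and 4053 reads or 104 CPM in Control. Its log2 ratio was 0.86 (0.80 to 0.92). Both were under the 2-fold rule and over a fold of 1.5, ACACA only without the correction for GC content and transcript length. Without that correction, reads of FASN per read of ACACA were 2.67 in PNU282987 and 2.45 in Control, a ratio of 1.09 (1.01 to 1.17). The reads of FASN per read of ACLY were 0.949 in PNU282987 and 0.643 in Control, a ratio of 1.48 (1.402 to 1.554). Summed over ACLY, ACSS2, ACACA and FASN, the level was 503 CPM in PNU282987 and 355 CPM in Control, 1.42-fold higher.

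The elongases ELOVL6 and ELOVL5 differed in level and in ratio. ELOVL6, which lengthens saturated and monounsaturated chains such as palmitate (chromosome 4, 110045846 to 110199202), had 290 reads or 7.95 CPM in PNU282987 and 116 reads or 2.98 CPM in Control. Its log2 ratio of 1.42 (1.10 to 1.74) was higher than that of 98.5% of loci, and its interval was the widest of the 10 because it had the fewest reads. ELOVL5, which lengthens polyunsaturated chains (chromosome 6, 53267404 to 53348950), had 5520 reads or 151 CPM in PNU282987 and 4034 reads or 104 CPM in Control, with a log2 ratio of 0.55 (0.49 to 0.61). Reads of ELOVL6 per read of ELOVL5 were 0.0525 in PNU282987 and 0.0288 in Control, 1.83 times as many in PNU282987 (1.47 to 2.27). Over both elongases the summed level was 159 CPM in PNU282987 and 106 CPM in Control, 1.496-fold higher.

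SCD, the desaturase that makes monounsaturated from saturated acyl-CoA (chromosome 10, 100347233 to 100364826), was the most abundant of the 10. It had 40368 reads or 1107 CPM in PNU282987 and 33592 reads or 862 CPM in Control, which was 49.0% of the reads of the 10 genes in PNU282987 and 52.6% in Control. Its log2 ratio of 0.36 (0.34 to 0.38) gave 39.6% of the gain in summed CPM. Without SCD the other 9 genes summed to 1151 CPM in PNU282987 and 777 CPM in Control, 1.48-fold higher. Reads of SCD per read of FASN were 5.87 in PNU282987 and 8.29 in Control, a ratio of 0.708 (0.680 to 0.738). Its processed pseudogene SCDP1 had 10 reads in PNU282987 and 8 in Control.

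FADS1 and FADS2, which insert double bonds into polyunsaturated chains in succession, had unequal ratios although they are neighbours. FADS2 (chromosome 11, 61816203 to 61867354, plus strand), which acts earlier in that pathway, had 6848 reads or 188 CPM in PNU282987 and 6521 reads or 167 CPM in Control, with a log2 ratio of 0.17 (0.12 to 0.22). FADS1 (chromosome 11, 61799627 to 61817003, minus strand), which acts later, had 10046 reads or 276 CPM in PNU282987 and 5519 reads or 142 CPM in Control, with a log2 ratio of 0.96 (0.91 to 1.01). FADS1 had more reads than FADS2 in PNU282987 and fewer in Control: there were 1.47 reads of FADS1 per read of FADS2 in PNU282987 and 0.846 in Control, a 1.73-fold difference (1.65 to 1.82). The genes overlap head to head over 801 bases on opposite strands. The kit marks strand, but the sources used here do not say how reads were assigned, so reads in that stretch are uncertain, and their effect on the difference between the genes was not tested. All reads of both genes pooled gave a log2 ratio of 0.58. Over SCD, FADS1 and FADS2 the summed level was 1571 CPM in PNU282987 and 1171 CPM in Control, 1.34-fold higher.

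**Figure D2:**
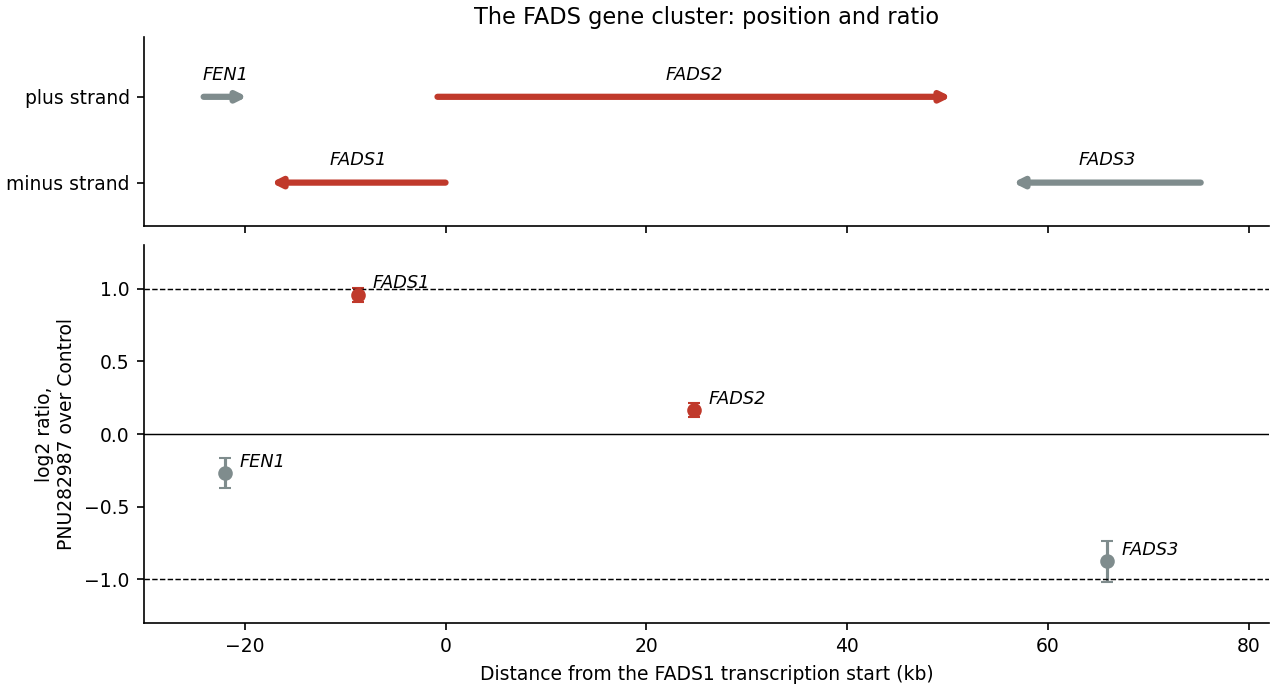
The FADS genes and their neighbour FEN1, drawn by distance in kilobases from the FADS1 start with arrows for strand, and each gene's log2 ratio of PNU282987 over Control below it with its 95% counting interval. FADS1 at 0.96 stands above FADS2 at 0.17, and FADS3 at -0.88 and FEN1 at -0.27 lie below equal levels.

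The 8 other genes looked at around FADS1 on chromosome 11 had lower ratios than FADS1. FADS2 and MYRF lay above equal levels, and FADS3, FEN1, TMEM258, RAB3IL1, BEST1 and FTH1 lay below. FADS3, the third member of the family, whose distinct desaturase role is less well settled, had 17.5 CPM in PNU282987 and 32.1 CPM in Control, a log2 ratio of -0.88 (-1.02 to -0.74). FEN1, a flap endonuclease of DNA replication and repair, had 37.0 CPM in PNU282987 and 44.5 CPM in Control, a log2 ratio of -0.27. MYRF, a transcription factor known for its role in myelination, had 9.68 CPM in PNU282987 and 7.34 CPM in Control, a log2 ratio of 0.40 (0.17 to 0.63). Around all 10 genes, the 18 nearest compared loci had a median log2 ratio of 0.05. By the 2-fold rule 0 of the 18 were called, beside 2.96% of all loci called higher and 2.81% called lower. At those shares a count of 0 in 18 says little. The 18 ran between -0.88 for FADS3 and 0.44 for PKD2L1, which lies beside SCD and encodes a cation channel. TADA2A, 50 bases from ACACA, had 19.9 CPM in PNU282987 and 25.1 CPM in Control, a log2 ratio of -0.34.

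PNPLA3, a lipid droplet protein with triacylglycerol hydrolase and acyltransferase activities (chromosome 22, 43923805 to 43947582), had the highest ratio of the 10. It had 922 reads or 25.3 CPM in PNU282987 and 268 reads or 6.88 CPM in Control. Its log2 ratio of 1.88 (1.68 to 2.08) was higher than that of 99.1% of loci, and 125 of the 14269 loci had a higher one. Of 7 other patatin-like phospholipases, 6 were compared, and their median log2 ratio was -0.08. Of the 6, 0 were called, beside 2.96% of all loci called higher and 2.81% called lower. The most abundant of these phospholipases was PNPLA6, a lysophospholipase, with 92.3 CPM in PNU282987 and 111 CPM in Control (log2 ratio -0.27). PNPLA8, a phospholipase A, had 43.6 CPM in PNU282987 and 37.2 CPM in Control (0.23).

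**Figure D3:**
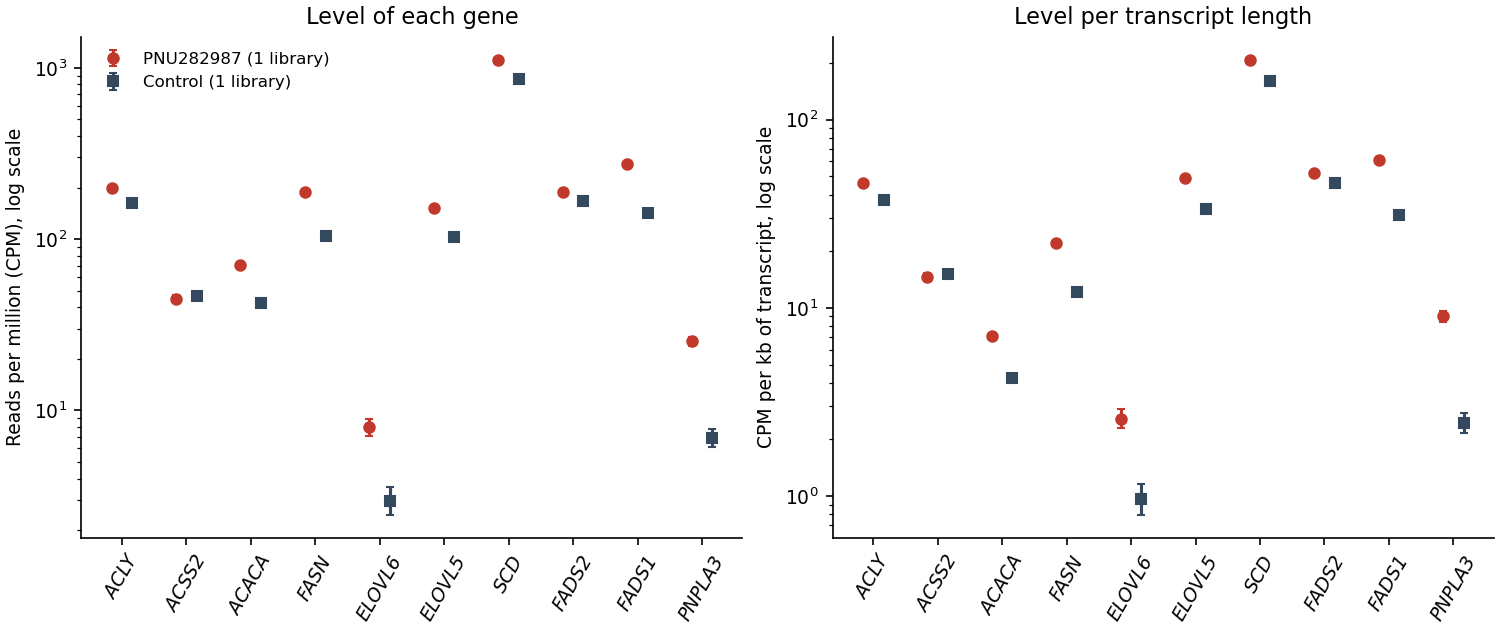
Level of each of the 10 genes in the PNU282987 and the Control library, in CPM and in CPM per kilobase of transcript on log axes, with 95% counting intervals. SCD is highest in both libraries, and ELOVL6 is lowest.

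Divided by transcript length, levels could be set between genes. SCD was highest at 207 CPM per kilobase in PNU282987 and 161 in Control, and ELOVL6 was lowest at 2.57 CPM per kilobase in PNU282987 and 0.963 in Control. The level of SCD was 80.2 times that of ELOVL6 in PNU282987 and 167 times in Control. FADS1 had rank 2 at 60.9 CPM per kilobase in PNU282987 and rank 5 at 31.3 in Control. FADS2 had 51.7 CPM per kilobase in PNU282987 and 46.1 in Control, ELOVL5 had 49.1 in PNU282987 and 33.6 in Control, and ACLY had 45.8 in PNU282987 and 37.3 in Control. FASN had 22.0 CPM per kilobase in PNU282987 and 12.1 in Control, ACSS2 had 14.7 in PNU282987 and 15.2 in Control, PNPLA3 had 9.02 in PNU282987 and 2.45 in Control, and ACACA had 7.09 in PNU282987 and 4.26 in Control. In neither library did the counting intervals of neighbours in this order overlap, and the closest were FADS2 at 50.5 to 53.0 and ELOVL5 at 47.9 to 50.5 CPM per kilobase in PNU282987. These levels depend on the transcript taken: with the longest annotated transcript of any kind, FADS2 had 37.0 CPM per kilobase in PNU282987 and 33.0 in Control, and ELOVL6 had 1.23 in PNU282987 and 0.461 in Control.

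The steps around the 10 genes were described from lists of the pathway. Most of these genes were under the 2-fold rule, which holds for most loci too. Over all 14269 loci compared, 2.96% were called higher and 2.81% lower, the shares to set beside each list's count below. In lists this short, a count of 0 or 1 says little. Of 8 other enzymes of acetyl-CoA and malonyl-CoA, 1 was higher: ACSS1, the mitochondrial acetyl-CoA synthetase, with 30.3 CPM in PNU282987 and 15.0 CPM in Control (log2 ratio 1.01), and the median of the list was 0.06. Of 7 genes of mitochondrial fatty acid synthesis, 1 was higher, the dehydratase HTD2, with 27.0 CPM in PNU282987 and 13.2 CPM in Control (log2 ratio 1.03), which was 0.61 with the reads of the overlapping RPP14 added. The list's median was 0.10. Of 10 compared genes of the other elongation steps, 1 was higher: the elongase ELOVL7, with 4.66 CPM in PNU282987 and 1.49 CPM in Control (log2 ratio 1.65, 1.21 to 2.103), in a list with a median of 0.12. Of 7 other desaturases and electron carriers compared, 0 were called and the median was -0.40. The most abundant were CYB5R3, the cytochrome b5 reductase that passes electrons to desaturases, with 140 CPM in PNU282987 and 190 CPM in Control, and DEGS1, the ceramide desaturase, with 106 CPM in PNU282987 and 139 CPM in Control.

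Among 9 compared acyl-CoA synthetases, which activate free fatty acids, 2 were higher and 1 was lower, with a median log2 ratio of 0.31. ACSL1, a long-chain acyl-CoA synthetase, had 466 CPM in PNU282987 and 145 CPM in Control (log2 ratio 1.68, 1.64 to 1.73). SLC27A2, a very-long-chain synthetase and fatty acid transporter, had 2.61 CPM in PNU282987 and 0.898 CPM in Control (1.54), and SLC27A3, of the same family, had 1.81 CPM in PNU282987 and 7.29 CPM in Control (-2.01). The 9 genes of NADPH supply, the reducing power for FASN, had 0 calls and a median of -0.02, which was 0.089 after correction for GC content and transcript length. The most abundant of them were PGD of the pentose phosphate pathway, with 632 CPM in PNU282987 and 639 CPM in Control, and TKT, with 402 CPM in PNU282987 and 447 CPM in Control. Single genes of this list differed in both directions. Of the 9, 4 had a counting interval wholly above 1, beside 33.5% of loci, and 4 wholly below, beside 33.6%. Their log2 ratios ran between -0.84 for ME3 (-1.10 to -0.58) and 0.81 for ME1 (0.73 to 0.88). ME1 had 111 CPM in PNU282987 and 63.2 CPM in Control, and ME3 had 5.16 CPM in PNU282987 and 9.21 CPM in Control. The 20 compared genes of glycerolipid and phospholipid acylation had a median of -0.14 and 0 calls. LPCAT1 had 133 CPM in PNU282987 and 157 CPM in Control, and AGPAT3 had 113 CPM in PNU282987 and 129 CPM in Control.

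Of 17 compared regulators of lipogenic transcription, 2 were higher in PNU282987 and 0 lower, with a median log2 ratio of -0.07 that was 0.058 after correction for GC content and transcript length. INSIG1, a protein that retains the SREBP escort SCAP in the endoplasmic reticulum and is itself an SREBP target, had 260 CPM in PNU282987 and 107 CPM in Control (1.27, 1.22 to 1.33). PPARGC1B, a transcriptional coactivator, had 126 CPM in PNU282987 and 32.5 CPM in Control (1.96, 1.87 to 2.05). The genes for the SREBPs were under the rule: SREBF1 had 92.9 CPM in PNU282987 and 77.6 CPM in Control (0.26), and SREBF2 had 216 CPM in PNU282987 and 165 CPM in Control (0.39). NR1H3, the liver X receptor alpha, had 16.9 CPM in PNU282987 and 29.5 CPM in Control (-0.80). THRSP, a lipogenic protein of liver and fat, had 0 reads in both libraries, which allows up to 0.0823 CPM in PNU282987 and 0.0770 CPM in Control.

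Genes of fatty acid oxidation, the opposing route, were mostly lower in PNU282987. Of 22 compared, 20 had a ratio below 1, beside 50.8% of all loci compared, and 17 had a counting interval wholly below 1, beside 33.6% of loci. By the 2-fold rule 1 was lower and 0 were higher, and the median was -0.34. After correction for GC content and transcript length the median was -0.26. ECHS1, ECI1 and DECR1, below a ratio of 1 before it, then had log2 ratios of 0.06, 0.23 and 0.006. CPT1A, the mitochondrial carnitine palmitoyltransferase of most tissues, had 75.0 CPM in PNU282987 and 148 CPM in Control. Its log2 ratio was -0.99, just short of the rule, and -1.03, past a fold of 2, after that correction. The gene called without the correction was CPT1B, the muscle form, with 3.79 CPM in PNU282987 and 12.6 CPM in Control (-1.73). With the reads of overlapping loci added its log2 ratio was -0.51. ACADM, the medium-chain acyl-CoA dehydrogenase, had the highest ratio of the list, 0.49, with 65.1 CPM in PNU282987 and 46.3 CPM in Control. CPT1A and ACADM, like ME1, ME3, SREBF1, SREBF2, NR1H3 and THRSP above, were picked for mention after their values were seen.

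**Figure D4:**
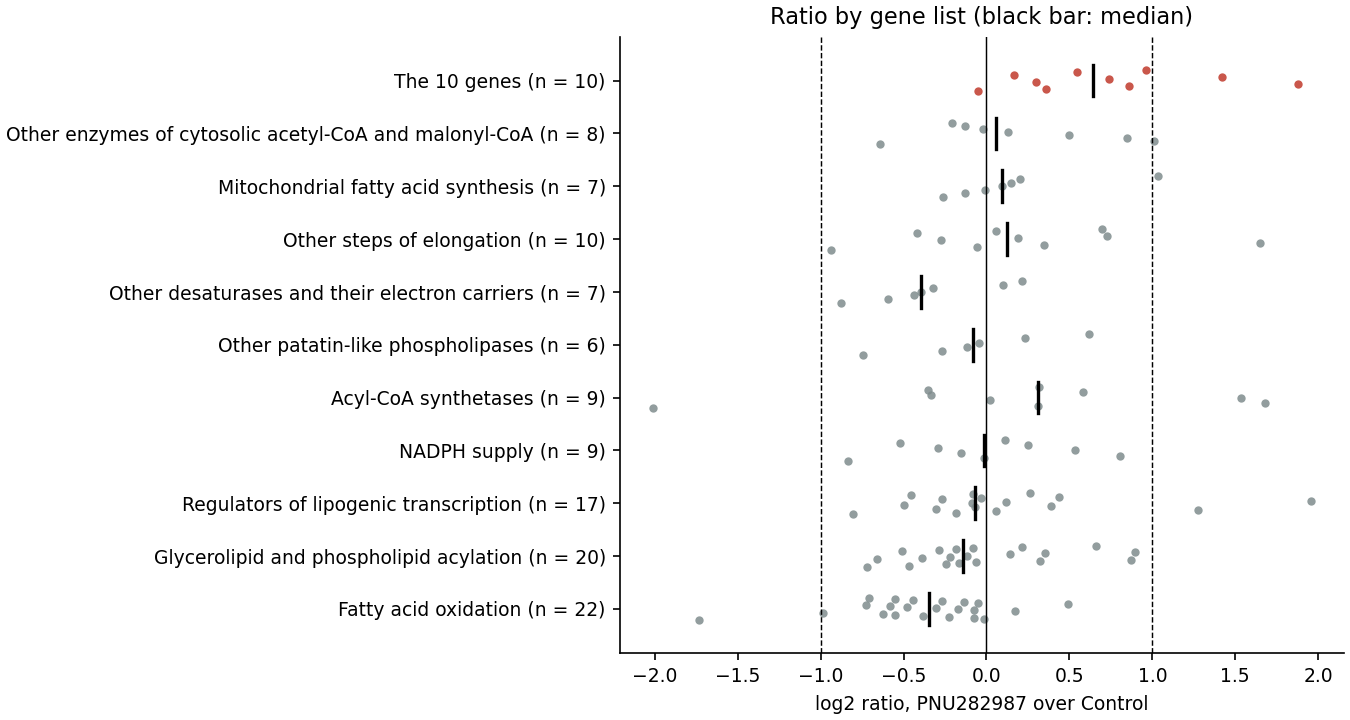
Log2 ratio of PNU282987 over Control for each compared gene of the 10 genes and of each pathway list, with the list's median as a bar and dashed lines at a 2-fold difference. The median is 0.64 for the 10 genes and -0.34 for fatty acid oxidation.

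The ratios were recomputed under 8 other settings of scaling, depth, read assignment and trend removal. Cutting both counts by 2 cannot change a ratio, and another scaling shifts all genes alike. Adding overlapping loci cannot change PNPLA3, ELOVL6 or ACSS2, which overlap no other locus of the table. For these genes only thinning and trend removal could move the ratio relative to other genes, so their narrow ranges say little. PNPLA3 lay between 1.87 and 1.98, ELOVL6 between 1.35 and 1.44, FASN between 0.85 and 0.96 and ACACA between 0.52 and 0.76. ACSS2 lay between -0.06 and 0.05. Leaving aside the settings that add overlapping loci, FADS1 lay between 0.93 and 0.99 and FADS2 between 0.16 and 0.32. Those settings merge all reads of FADS1 and FADS2, so the value of 0.58 that they give for both genes is the pooled ratio by construction and no range for either gene.

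**Figure D5:**
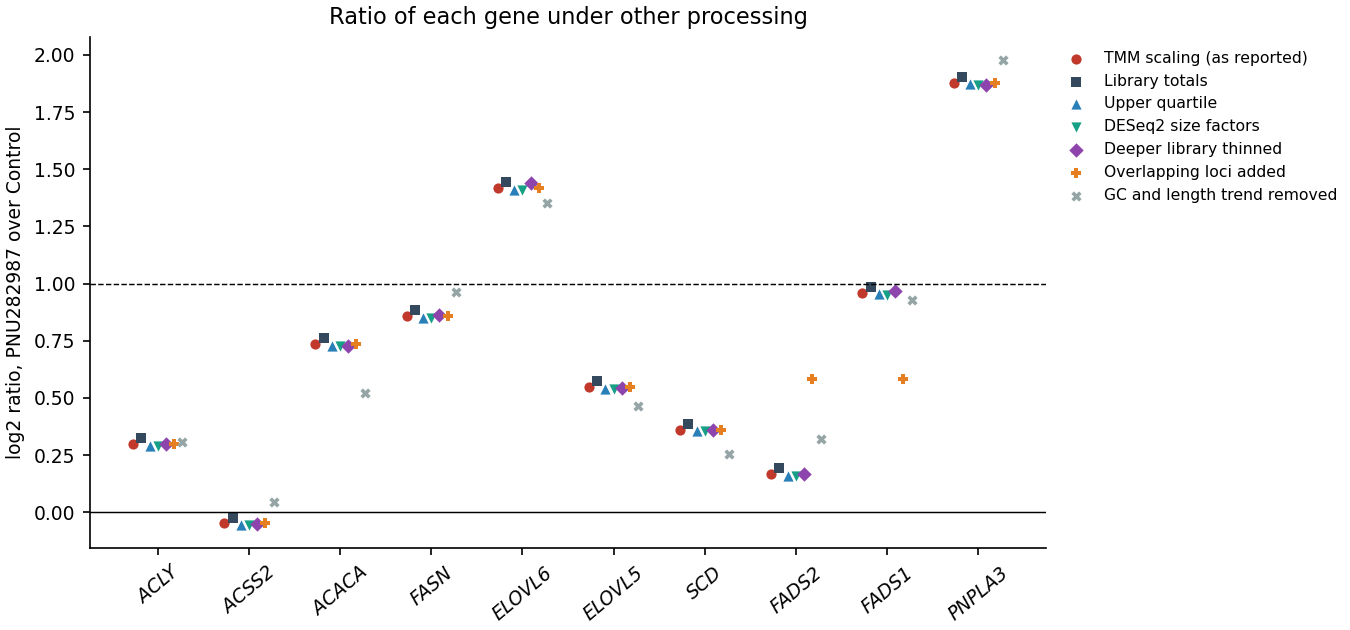
Log2 ratio of PNU282987 over Control of each of the 10 genes as computed from TMM-scaled totals and with other scalings, thinning, overlapping loci added or a correction for GC content and length. With overlapping loci added, FADS1 and FADS2 share the value of 0.58 because their reads are pooled, and of the 10 genes ACSS2 alone changes sign under the settings drawn.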

How the data were processed

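RNA was measured by sequencing in 1 PNU282987 and 1 Control library, prepared with a TruSeq stranded mRNA kit per the labels' protocols. The authors deposited whole-number read counts for each locus without normalization, as the file headers show. The submitters' processing notes list HISAT2 2.1.0, StringTie 2.1.3b, Trimmomatic 0.38, FastQC 0.11.7 and edgeR, and the build GRCh38. The sources used here give neither their roles nor how read pairs and strand were handled in counting. More loci had 2 reads than 1 read (979 against 817 in PNU282987, 958 against 818 in Control), so mates may have been counted singly, which would make the counting intervals too narrow. Reads are not independent molecules either.

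From the counts, library totals were scaled with TMM factors (edgeR 4.0.16; 1.01 for PNU282987 and 0.991 for Control), and the log2 ratio of PNU282987 over Control was given with an exact 95% Clopper-Pearson interval, which covers counting error only. Intervals of ratios between genes are normal approximations on log read counts. Loci with a mean under 1 CPM were left out, and 0 reads was taken to allow up to 3. Levels per kilobase used the longest transcript matched by RefSeq accession in GENCODE. With 1 library a group no test was possible. The calculation was tested on simulated counts that held counting error only. This checks the arithmetic and cannot speak to spread between cultures or to mates counted singly. Alternatives were raw totals, upper quartile and DESeq2 1.42.0 scaling, other filters and folds, counts cut by 2, thinning of the deeper library, adding reads of overlapping loci, and removal of the trend over GC content and transcript length. The transcript choice for levels and the overlap setting for list genes were chosen after seeing the data.

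The 10 genes and the pathway and marker lists were chosen with earlier results of these data known. From each pathway list, genes past the 2-fold rule were named, or otherwise the 2 with the most reads. Figures were drawn with matplotlib 3.10.9.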

Additional observations from a re-analysis of the deposited data

How the results depend on the processing

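The median log2 ratio of the 10 genes was 0.64. After removal of the trend over GC content and transcript length it was 0.49, and it was 0.36 over the 5 genes that overlap no other locus of the table, 0.74 with ACLY, ACSS2, ELOVL5, SCD or FADS2 left out, and 0.55 with ACACA, FASN, ELOVL6, FADS1 or PNPLA3 left out. The count of genes past the rule was 2 of 10, 5 at a fold of 1.5, 0 at a fold of 4, and 1 with ELOVL6 or PNPLA3 left out. The count over all loci was 824; it was 1829 with at least 10 reads in place of the CPM minimum, 417 at a mean of at least 5 CPM, 2487 at a fold of 1.5, 166 at a fold of 4, and 453 where the whole interval had to lie beyond 2-fold. The median of the other elongation steps was -0.17 at a mean of at least 5 CPM, against 0.12. The median of the regulators was 0.058 with the trend removed, against -0.07. For fatty acid oxidation the median was -0.26 with the trend removed, against -0.34. The cause of these shifts was not tested, apart from those that follow from the fold, filter or genes left out. Library totals, upper quartile and DESeq2 scaling kept the count of genes at 2. No paired analysis was possible because each group has 1 library, and for the same reason no library could be left out. ELOVL6, with 290 reads in PNU282987 and 116 in Control, had the least precise ratio of the 10 genes.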
